A study of Homo sapiens with 5 samples.

Results

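Keratins are the intermediate filament proteins of epithelial cells, and a type I chain always pairs with a type II chain. In the mammary gland the luminal cells carry the simple keratins KRT8, KRT18, KRT19 and KRT7, while the basal cells carry KRT5, KRT14 and KRT17, so these genes are used to tell luminal from basal cells. The human type II genes lie together on chromosome 12 and the type I genes on chromosome 17, with KRT18 as the type I gene that sits among the type II genes. SMAD2 is a transcription factor that enters the nucleus once an activin or TGF-β receptor has phosphorylated it. There it is found on DNA in complexes with SMAD4.

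The SMAD2 summits of both keratin clusters were examined in T47D, an estrogen receptor-positive human breast cancer cell line of the luminal type. A summit is the single base where a peak caller placed the top of an enriched stretch. The type II cluster was taken as 52550 to 53360 kb of chromosome 12 and the type I cluster as 38800 to 39790 kb of chromosome 17 (hg19), and 9 genes were described: KRT80, KRT7, KRT81, KRT5, KRT8 and KRT18 on chromosome 12, and KRT19, KRT14 and KRT17 on chromosome 17. Summits of all libraries lying at most 200 bp apart were joined into regions, which gave 236 regions in the clusters of 115321 in the genome, 113 in the type II cluster and 123 in the type I cluster. The cluster limits and genes were chosen by position, but with the summit counts and scores of these same libraries known, so the differences between treatments are given as descriptions with no test.

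In the palbociclib group (2 libraries), palbociclib, an inhibitor of CDK4 and CDK6, was given at 1 µM for 24 h, and activin A at 50 ng/ml for 1.5 h. In the activin group (2 libraries), the same dose and time of activin A was given with no inhibitor. All 4 chromatin samples were precipitated with an antibody to SMAD2, and input DNA of untreated cells was the control for peak calling. No SMAD2 library of cells without activin was analysed here, so every value describes activin-stimulated cells.

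The palbociclib lists held 62960 and 65207 summits and the activin lists 51535 and 54243, on chromosomes 1 to 22 and X, so a list was on average 1.21-fold as long with palbociclib. Read depths are not known, and the length of a list and its scores both vary with depth. Each summit has a score from the authors' files, read as the −log10 q of the peak against input. Scores are used here to rank summits within their own list, and a rank is also given as a percentage of the list, where a small percentage means a strong summit. The palbociclib lists are longer, so the same rank is a smaller percentage there, and it is said below where rank as a number gave another order. The median score of a list was 9.41 and 8.39 with palbociclib, and 9.46 and 8.34 with activin alone. With 2 libraries against 2, an exact two-sided permutation test cannot give a p below 0.333.

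The luminal keratin genes KRT8, KRT18 and KRT19 held strong SMAD2 summits within 1 kb of their starts. The luminal KRT7 held weaker ones in 3 libraries, and the basal keratin genes KRT5, KRT14 and KRT17 held none there. KRT8, KRT18, KRT19 and KRT80 had a summit within 1 kb of the annotated start in each of the 4 libraries, KRT7 in 3 libraries, and KRT81, KRT5, KRT14 and KRT17 in 0. Gene starts are known here to the nearest kb, and the strong KRT18 summits lay 0.95 to 0.98 kb inside the gene. At KRT8, KRT18 and KRT19 the start region ranked in the first 1.20% of every list, except that of KRT19 in activin replicate 2. The plot of summits by distance from the gene start shows the contrast between these genes.

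**Figure D1:**
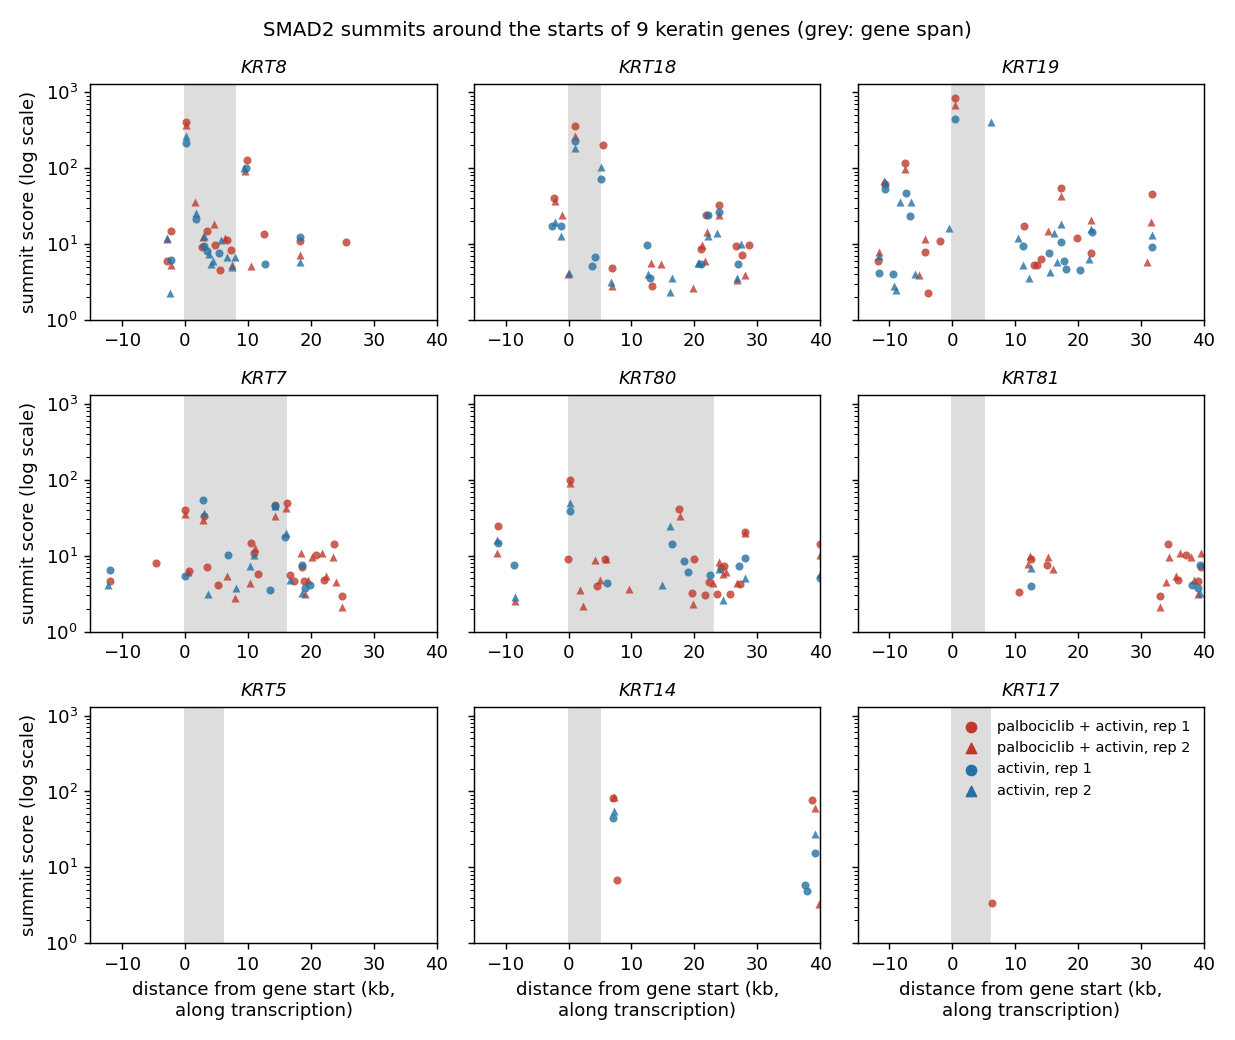
SMAD2 summits of each library around 9 keratin genes, by distance from the gene start in kb along the direction of transcription (x axis) and by the authors' score on a log scale (y axis). Grey marks the gene span, colour the treatment and marker shape the replicate. The start regions of KRT8, KRT18 and KRT19 score 182 or more in each library that lists them, the KRT5 panel is empty, and KRT17 has 1 summit with a score of 3.39.

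KRT8 encodes the type II partner of KRT18 in simple epithelia. Its start region, on chromosome 12 at 53298809 to 53298836, lay inside the gene span of 53291 to 53299 kb. It scored 402 and 365 in the palbociclib lists, at ranks 174 and 157, and 217 and 264 in the activin lists, at ranks 348 and 220. These ranks are 0.28% and 0.24% of the palbociclib lists and 0.68% and 0.41% of the activin lists, so both palbociclib libraries placed it higher. The summits of the 4 libraries fell within 28 bp of one another.

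Past the 3′ end of KRT8 lay another strong region, at 53289198 to 53289627. It scored 130 and 90.7 with palbociclib and 101 and 102 with activin alone. Here the order was the other way: the region ranked at 5.47% and 8.03% of the palbociclib lists and at 4.62% and 4.64% of the activin lists. Between these places the KRT8 gene body carried further summits, each of lower score than the start region. The window of the gene plus 10 kb on each side held 11 and 10 summits in the palbociclib libraries and 8 and 13 in the activin libraries. Both groups averaged 10.5, with an SD of 0.71 for palbociclib and 3.54 for activin (n = 2 each), so the counts overlapped.

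RefSeq promoter sequences, which run from 250 bases before to 50 bases after a gene's start, were at hand for KRT8 and KRT5, 2 of the 9 genes. The KRT8 sequence is shown because KRT8 is the gene among the 2 with a strong start region in every library. The RefSeq start lies 29.3 kb from the low end of the gene in GRCh38.p14, while the gene span used here is 8 kb, so the printed window belongs to another annotated start than the one under the strong summits. It lies on the minus strand at chr12:52926420-52926719 of GRCh38.p14, a build whose positions must not be set against the hg19 positions of the summits. Capitals mark CAGAC, the core of the SMAD binding element.
KRT8: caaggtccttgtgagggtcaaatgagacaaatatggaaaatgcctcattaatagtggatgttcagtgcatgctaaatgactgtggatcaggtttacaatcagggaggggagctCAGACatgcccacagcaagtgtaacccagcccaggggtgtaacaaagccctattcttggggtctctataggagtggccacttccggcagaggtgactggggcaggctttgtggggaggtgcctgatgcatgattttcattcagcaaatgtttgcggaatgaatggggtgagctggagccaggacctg
This window holds CAGAC once when both strands are read. Of all 35116 RefSeq promoters, 45.3% hold it at least once.

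KRT18, the type I partner of KRT8, lies next to it on chromosome 12 at 53342 to 53347 kb. Its strongest region, at 53342951 to 53342977, stood 0.96 kb inside the gene from the start. It scored 356 and 264 with palbociclib, at ranks 267 and 494, and 229 and 182 with activin alone, at ranks 300 and 650. The ranks of the groups overlapped, at 0.42% and 0.76% of the palbociclib lists and 0.58% and 1.20% of the activin lists.

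At the 3′ end of KRT18 the libraries differed in where, or whether, a summit was listed. Both activin libraries had one at 53347147 to 53347183, with scores of 71.8 and 103, which is the highest-ranking activin-only region of the clusters. Palbociclib replicate 1 listed a summit with a score of 201 at 53347425, 242 bp away and so beyond the joining distance. Palbociclib replicate 2 listed none nearer than 1696 bp. The KRT18 window held 5 and 7 summits with palbociclib and 8 and 7 with activin alone. Within the gene span itself there were 1 and 1 summits with palbociclib and 3 and 2 with activin alone.

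KRT19, a type I keratin widely used as a luminal and carcinoma marker, held the strongest summits of either cluster. At the start, on chromosome 17 at 39684523 to 39684537, the score was 837 and 678 in the palbociclib lists, at ranks 20 and 29. Activin replicate 1 scored 449 there, at rank 44. Activin replicate 2 had no summit in this region. Its strongest summit near the gene lay at 39678756, 1.24 kb past the 3′ end and 5.77 kb from the nearest start summit of the other libraries, with a score of 411 and rank 61. No other library had a summit within 1 kb of that position. Activin replicate 2 also listed a summit with a score of 16.0 at 39685535, on the upstream side of the start. The other 3 libraries placed their start summits within 14 bp of one another. The files give 1 position for an enriched stretch of unknown width, so a start without a listed summit may still have been bound.

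The flanks of KRT19 carried further summits whose listing varied between libraries of one treatment. Its window held 9 and 4 summits with palbociclib and 5 and 10 with activin alone, or 6.5 ± 3.54 and 7.5 ± 3.54 (SD, n = 2 each). None of the 19 regions in the window was found in all 4 libraries. Upstream of the start, a region at 39692407 to 39692488 scored 115 and 96.8 with palbociclib and 47.3 in activin replicate 1. An activin-only region lay close by at 39691552 to 39691669, with scores of 23.5 and 35.8, and its nearest palbociclib summit was 807 bp away. In RefSeq's gene order KRT15 is the neighbour on the 3′ side of KRT19 and KRT9 lies between KRT19 and KRT14, and the hg19 positions of those genes were not used here.

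KRT7, a simple keratin of ducts and glands, had weaker summits than KRT8, KRT18 and KRT19, and more of them with palbociclib. Its window, around the span of 52627 to 52643 kb on chromosome 12, held 19 and 18 summits with palbociclib and 9 and 9 with activin alone. The means were 18.5 ± 0.71 and 9 ± 0 (SD, n = 2 each), a log2 difference of 1.04, and the groups did not overlap. Per length these are 5.14 summits per 10 kb with palbociclib and 2.50 with activin alone.

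At the KRT7 start the palbociclib libraries listed summits with scores of 39.9 and 35.3, at 18.8% and 18.9% of their lists. Activin replicate 1 had a score of 5.46 there, at 76.0% of its list, and activin replicate 2 had no summit within 1 kb. Inside the gene, the region at 52629949 to 52630029, about 2.99 kb from the start, ranked higher with activin alone. It stood at 21.3% and 21.3% of the palbociclib lists and 12.8% and 17.1% of the activin lists. The region at 52641313 to 52641333 also ranked higher with activin alone, at 17.0% and 19.5% of the palbociclib lists and 15.2% and 14.0% of the activin lists. At the 3′ end, the region at 52642931 to 52643157 ranked higher with palbociclib, at 16.0% and 16.4% of the palbociclib lists and 31.7% and 27.0% of the activin lists. The KRT7 locus thus held regions that moved up and regions that moved down in rank.

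KRT80, a type II epithelial keratin at the edge of the cluster, also had more summits with palbociclib. Its window around 52563 to 52586 kb held 15 and 16 summits with palbociclib and 9 and 7 with activin alone, or 15.5 ± 0.71 and 8 ± 1.41 (SD, n = 2 each), a log2 difference of 0.95. The start region at 52585754 to 52585765 scored 100 and 90.2 with palbociclib and 39.3 and 48.7 with activin alone. It ranked at 8.10% and 8.12% of the palbociclib lists and at 17.2% and 13.2% of the activin lists, and its 4 summits fell within 12 bp. The strongest palbociclib-only region of the clusters lay inside KRT80 at 52568297 to 52568435, with scores of 41.3 and 33.8 and ranks at 18.3% and 19.5% of the lists. The nearest summit lay 641 bp away in activin replicate 1 and 1470 bp away in activin replicate 2.

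KRT81, a hair keratin also described in breast cancer cells, held no summit in its span of 52680 to 52685 kb. Its window held 2 and 2 summits with palbociclib and 1 and 1 with activin alone, all over 10 kb from the start on the 3′ side. The shared region there, at 52672446 to 52672626, scored 9.02 and 9.77 with palbociclib and 3.93 and 6.80 with activin alone. Counts this low give no scale for a fold difference.

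More summits in both palbociclib libraries than in both activin libraries were counted in 3 of the 9 windows, those of KRT80, KRT7 and KRT81. The windows were 25 to 43 kb long. In the genome, 12.8% of the 30-kb tiles with a summit met this condition, and 29.4% of the tiles with at least 20 summits over the 4 libraries did. At least 20 summits were held by 5 of the windows (KRT80, KRT7, KRT8, KRT18 and KRT19), and 2 of these 5 met it. With flanks of 0 and 5 kb, KRT80 and KRT7 met the condition and KRT81 did not, and with 25 kb the 3 genes did. More summits in both activin libraries were counted in 0 of the 9 windows at the 10-kb flank, where 2.88% of all tiles with a summit and 6.73% of the dense tiles had them. At flanks of 0 and 5 kb this was so for KRT18, with 4 and 5 summits with palbociclib and 6 and 6 with activin alone at 5 kb. At 25 kb it was so for KRT19, with 15 and 11 with palbociclib and 16 and 19 with activin alone. The added summits of KRT80 were mostly weak. Below the median score of their list, its window held 12 and 11 summits with palbociclib and 7 and 5 with activin alone, and at or above it 3 and 5 with palbociclib and 2 and 2 with activin alone. At KRT7, as at KRT80, both classes were larger with palbociclib. KRT7 had 11 and 9 weak summits with palbociclib and 5 and 5 with activin alone. Its stronger ones numbered 8 and 9 with palbociclib and 4 and 4 with activin alone. After each list was trimmed to its highest 51535 summits, the log2 difference was 0.19 at KRT80 and 0.53 at KRT7, and 1 of the 9 windows met the condition, that of KRT7. KRT18 then had more summits in both activin libraries. The tile shares above are for the whole lists, and none is given for the trimmed lists.

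**Figure D2:**
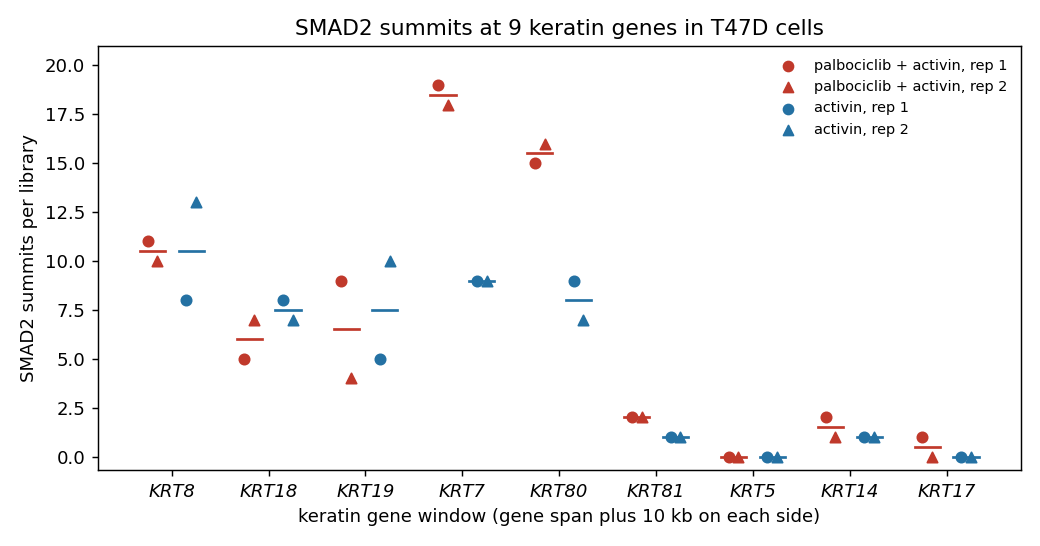
SMAD2 summits per library (y axis) in the window of each keratin gene, its span plus 10 kb on each side (x axis). Points are libraries and bars are the means of 2 libraries, with palbociclib left of activin alone. The KRT7 and KRT80 windows hold 15 to 19 summits with palbociclib and 7 to 9 with activin alone, while KRT8, KRT18 and KRT19 overlap between treatments and KRT5 is at 0.

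The windows of the basal keratin genes held few or no summits, and KRT5 stood in a long stretch without any. KRT5, the type II keratin of basal cells, had 0 summits in its window in all 4 libraries. It lay in a stretch of 147 kb, from 52871667 to 53018312, where no library listed a summit, and the summit nearest to its start was 42.3 kb away, in activin replicate 2, with a score of 3.40. KRT17, a type I keratin of basal and stressed epithelia, had 1 summit in its window, in palbociclib replicate 1, with a score of 3.39. The remaining libraries had none nearer to its start than 22.8 kb. Across the windows of KRT5, KRT14 and KRT17 together, 3 and 1 summits were listed with palbociclib and 1 and 1 with activin alone. Per 10 kb these are 0.26 and 0.13, set beside 3.64 and 3.03 over the windows of KRT8, KRT18, KRT19 and KRT7. The mean over the genome was 0.22 per 10 kb with palbociclib and 0.18 with activin alone, so the basal windows were near the genome's average and the simple keratin windows far above it.

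KRT14, the type I partner of KRT5, was the basal gene with a firm SMAD2 region close by. It lay at 39735846 to 39735860, past the 3′ end at 39738 kb and 7.15 kb from the start. It scored 82.4 and 83.8 with palbociclib and 44.2 and 54.98 with activin alone. It stood at 10.1% and 8.88% of the palbociclib lists and at 15.7% and 11.6% of the activin lists, but as numbers the ranks overlapped, at 6390 and 5789 with palbociclib and 8077 and 6313 with activin alone. The summits of the 4 libraries fell within 15 bp. No library listed a summit inside KRT14.

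The KRT5 promoter is printed as the promoter at hand of a keratin gene without a SMAD2 summit. It lies on the minus strand at chr12:52520345-52520644 of GRCh38.p14, and its start coincides with the high end of the gene there, 5.82 kb from the low end.
KRT5: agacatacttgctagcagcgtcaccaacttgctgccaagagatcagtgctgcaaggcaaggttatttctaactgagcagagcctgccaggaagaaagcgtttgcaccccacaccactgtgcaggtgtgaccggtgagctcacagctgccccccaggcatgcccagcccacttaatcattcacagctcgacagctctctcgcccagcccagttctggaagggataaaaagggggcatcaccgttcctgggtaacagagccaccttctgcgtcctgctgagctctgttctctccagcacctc
It was read on both strands for CAGAC, for the GC-rich SMAD boxes GGCGC and GGCCG, for the AP-1 motif TGANTCA, the GATA motif AGATAA, the forkhead motif TGTTTAC and the palindromic estrogen response element. None of these letter strings was found in it, and of them the KRT8 window held CAGAC alone. Among all RefSeq promoters the shares with a match were 48.6% for GGCGC, 49.3% for GGCCG, 7.71% for TGANTCA, 10.3% for AGATAA, 3.42% for TGTTTAC and 0.057% for the estrogen response element. GC content was 56.3% in the KRT5 window and 50.7% in the KRT8 window.

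Along the type II cluster the net difference between treatments in the whole lists lay at one end, with small differences in both directions elsewhere. The whole cluster held 67 and 64 summits with palbociclib and 45 and 48 with activin alone, or 65.5 ± 2.12 and 46.5 ± 2.12 (SD, n = 2 each), a ratio of 1.41 where the whole lists gave 1.21. At equal list lengths the log2 difference of the cluster fell from 0.49 to 0.14. From the low edge to KRT81, a stretch of 130 kb with KRT80 and KRT7, there were 40 and 40 summits with palbociclib and 21 and 19 with activin alone. Over the remaining 680 kb there were 27 and 24 with palbociclib and 24 and 29 with activin alone, and the groups overlapped. This split of the cluster was not among the planned comparisons and has no genome share beside it. Between KRT7 and KRT81 the counts were 12 and 14 with palbociclib and 4 and 4 with activin alone. RefSeq's order by the low end of each gene places KRT86 after KRT7. Where the body of KRT86 lies was not examined, so these summits are not assigned to it. Between KRT81 and KRT5, where 8 keratin genes from KRT83 to KRT6A lie, they were 2 and 1 with palbociclib and 2 and 2 with activin alone over 223 kb. Among the 12 keratin genes from KRT71 to KRT78 between KRT5 and KRT8 they were 8 and 7 with palbociclib and 6 and 5 with activin alone over 377 kb. Between KRT8 and KRT18 they were 6 and 6 with palbociclib and 5 and 5 with activin alone. The KRT18 span went the other way, with 1 and 1 with palbociclib and 3 and 2 with activin alone. In each library's highest 10000 summits the log2 difference of the cluster was −0.47, where the whole lists gave 0.49. The excess in count was thus not found at that cut, which keeps few summits of the cluster and has no genome value beside it. At or above the median score, the KRT80 and KRT7 windows held more summits with palbociclib, as given above.

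In the type I cluster the difference between treatments was smaller. It held 69 and 62 summits with palbociclib and 56 and 58 with activin alone, or 65.5 ± 4.95 and 57 ± 1.41 (SD, n = 2 each), a ratio of 1.15 that is below the 1.21 of the whole lists. As a share of the list these are 0.110% and 0.0951% with palbociclib and 0.109% and 0.107% with activin alone. At equal list lengths the log2 difference was −0.026. From the low edge to KRT19, a stretch of 880 kb, there were 57 and 53 summits with palbociclib and 46 and 48 with activin alone. Between KRT19 and KRT14 the counts were 9 and 8 with palbociclib and 9 and 10 with activin alone, and between KRT14 and KRT17, where KRT16 lies, 1 and 0 with palbociclib and 0 and 0 with activin alone.

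**Figure D3:**
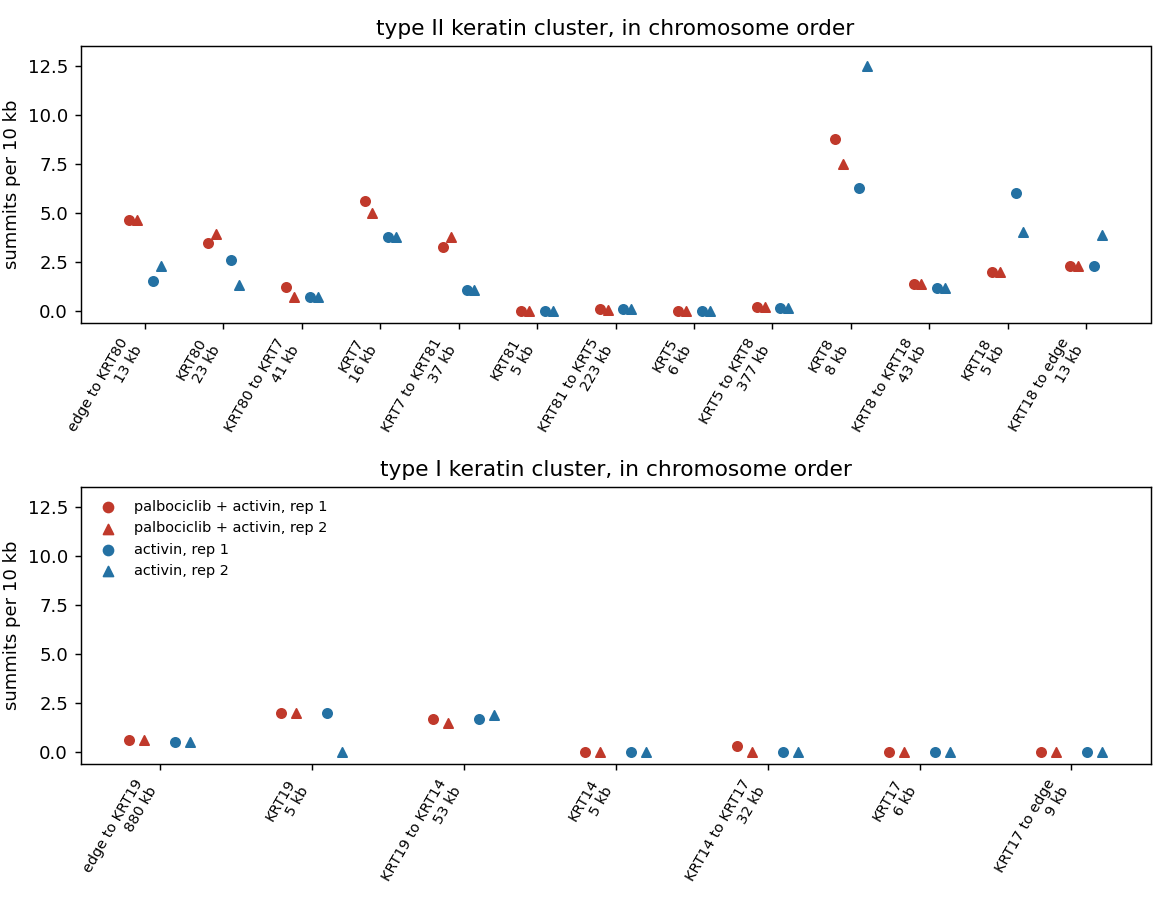
Summits per 10 kb in each library (y axis) over successive segments of the type II cluster (top) and the type I cluster (bottom), in chromosome order, with the length of each segment under its name (x axis). Points are libraries, with palbociclib left of activin alone. Both palbociclib points lie above both activin points in 4 of the 5 segments from the low edge to KRT81, the segment between KRT80 and KRT7 being the exception, and the long segments around KRT5 hold close to 0 in every library.

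The summits nearest to the cluster limits show how the limits bear on the counts. Inside the low edge of the type II cluster the first summit lay 7978 bp from the edge, with a score of 5.02, and outside it one lay 3870 bp away with a score of 10.1. At its high edge these distances were 1603 bp inside and 1694 bp outside, with scores of 3.55 and 2.62. The type I cluster began exactly on a summit of palbociclib replicate 1 with a score of 4.75, and the next one outside lay 1261 bp away with a score of 2.61. At its high edge the last summit inside lay 15292 bp away, with a score of 3.39, and the first outside 13801 bp away, with a score of 4.23.

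Regions found in all 4 libraries numbered 41 of the 236 (17.4%), where the genome gave 20.4%. They were 16 in the type II cluster and 25 in the type I cluster. Of these 41, 16 ranked higher in both palbociclib lists as a percentage of the list and 7 ranked higher in both activin lists. Over the 23476 such regions of the genome the shares were 39.3% and 8.84%, so the keratin regions were near the background on the palbociclib side. On the activin side, 7 of 41 is a larger share than the genome's 8.84%, on few regions, and this difference was not tested. By rank as a number, which does not favour the longer palbociclib lists, 10 of the 41 ranked higher with palbociclib and 11 with activin alone, where the genome gave 21.7% and 18.5%. The 5 that stood in the top 10% of every list were split 1 to 3: KRT8 at its start ranked higher with palbociclib, and 3 others ranked higher with activin alone. In the genome 35.2% of such strong regions ranked higher with palbociclib and 13.3% with activin alone. By rank as a number the 5 were again split 1 to 3, and the genome gave 20.5% and 22.6%.

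The strongest of those ranking higher with activin alone lay away from the 9 genes, on chromosome 17 at 39114523 to 39114536. It scored 327 and 307 with palbociclib, at ranks 356 and 298, and 430 and 404 with activin alone, at ranks 46 and 64. A neighbouring region, at 39113220 to 39113305, went the other way, at 23.6% and 22.4% of the palbociclib lists and 38.1% and 32.3% of the activin lists. Another ranking higher with activin alone lay at 39569699 to 39569731, at 9.77% and 9.57% of the palbociclib lists and 7.07% and 5.22% of the activin lists. No hg19 annotation was used here, so these positions are not assigned to a gene.

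Other leading shared regions of the type I cluster were weaker. The one at 39066782 to 39066875 ranked higher with palbociclib, at 12.7% and 13.4% of the palbociclib lists and 18.2% and 17.1% of the activin lists. The one at 39165663 to 39165724 stood at 18.3% and 18.6% of the palbociclib lists and 24.9% and 21.4% of the activin lists, but its ranks as numbers overlapped, at 11544 and 12127 with palbociclib and 12838 and 11605 with activin alone. Regions at 38804032 to 38804060, 39092842 to 39092887, 39695641 to 39695773 and 38808592 to 38808645 had percentages that overlapped between treatments, and as numbers the ranks at 39092842 and 39695641 were higher with activin alone. In the type II cluster the regions at 53208431 to 53208464 and 52597182 to 52597316 overlapped as well, and the one at 53194743 to 53194776 ranked higher with palbociclib, at 13.4% and 13.8% of the palbociclib lists and 19.2% and 17.9% of the activin lists.

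**Figure D4:**
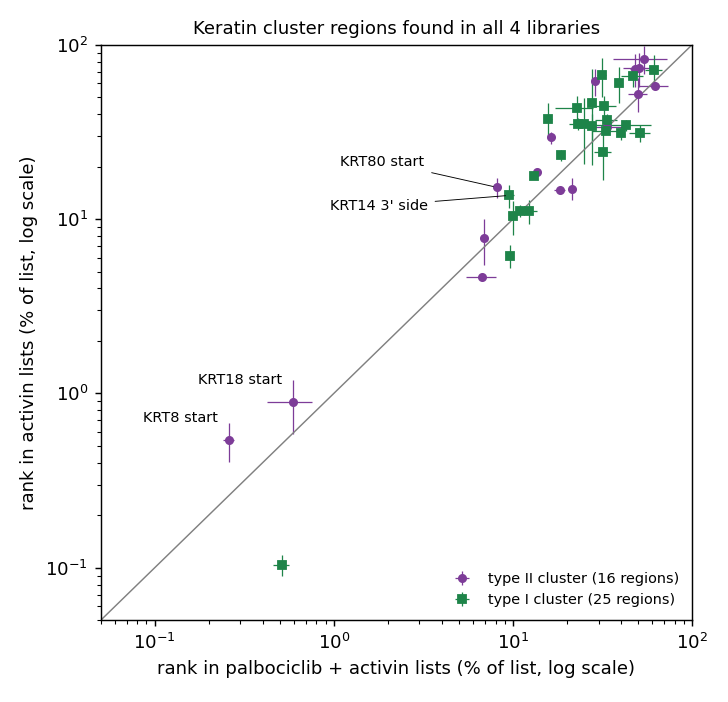
Rank as a percentage of the list, on log scales, of the 41 keratin cluster regions found in all 4 libraries, in the palbociclib lists (x axis) and the activin lists (y axis). Points are means and bars the range of 2 libraries, and the line marks equal rank. KRT8 and KRT80 at their starts lie above the line, which is higher rank with palbociclib, and the strongest type I region lies below it.

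Regions with a summit from each palbociclib library but from no activin library numbered 20 of the 236 (8.47%), where the genome gave 5.29%. Those found in both activin libraries alone numbered 7 (2.97%), where the genome gave 2.22%. The palbociclib-only regions were 10 in each cluster, and the activin-only regions 3 in the type II cluster and 4 in the type I cluster. Most lay close to a summit of the other treatment: the median distance was 1762 bp for the palbociclib-only regions and 553 bp for the activin-only regions. Over 5 kb from any summit of the other treatment lay 4 palbociclib-only regions and 1 activin-only region. Among the highest 10000 summits of each list, no region was palbociclib-only and 3 were activin-only. No genome share is given at this cut. Of these 3, the one at the 3′ end of KRT18 is activin-only in the whole lists too, and the 2 inside KRT7 are found in all 4 libraries there.

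After the one inside KRT80, the leading palbociclib-only regions were weak. That at 39480585 to 39480667 in the type I cluster scored 16.7 and 24.8 and lay 14755 bp from the nearest activin summit. That at 53221135 to 53221141, in the type II cluster, scored 12.5 and 15.4 and lay 12677 bp away. Around KRT7 there were such regions at 52611213 to 52611264, with scores of 16.5 and 10.7, at 52650561 to 52650679, with 14.4 and 9.72, and at 52627451 to 52627640, just inside the gene start, with 6.29 and 6.17. Inside KRT8, a palbociclib-only region at 53296159 to 53296208 with scores of 9.18 and 12.5 and an activin-only region at 53295917 to 53295937 with scores of 9.42 and 12.6 lay 222 bp apart. The farthest from any activin summit was at 39391777 to 39391861, at 101716 bp, with scores of 3.90 and 2.91. The other palbociclib-only regions scored at most 22.5 in either list. The activin-only region farthest from any palbociclib summit was at 39256139 to 39256279, at 27638 bp, with scores of 3.72 and 6.28.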

How the data were processed

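The submitters' processing notes name hg19, MACS2 2.0.9, Bowtie 1.1.0 and Picard, with no settings. A deposited file holds the summits of 1 library, called separately, each with a score read as the −log10 q of the authors' peak caller because the lowest score, 1.31, is just above the 1.30 of a q of 0.05. The input library was not analysed here. Positions were made 1-based, and contigs other than chromosomes 1 to 22 and X were dropped. Summits were joined into regions at gaps of at most 200 bp, counted in gene spans plus 10 kb, and set beside all 30-kb tiles and regions of the genome. Gene spans, in whole kb, came with the choice of genes. Strands of KRT5 and KRT8 came from RefSeq and those of the other genes from textbook knowledge. RefSeq tables (GRCh38.p14) gave gene order for all 9 genes, by the low end of each gene. The genes, limits and lists were chosen with earlier results of these data known. For named regions, the rule took the 10 of each cluster and set with the best worst rank. All named gene windows are shown. The labels do not say whether replicates were separate cultures, so their spread may be technical. Joining and counting were checked on simulated lists. Python 3.11.15, numpy 2.4.6, pandas 2.3.3 and matplotlib 3.10.9 were used.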

Additional observations from a re-analysis of the deposited data

How the results depend on the processing

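The ranking comparison of shared regions, its alternatives and the dense tiles were chosen after seeing the data. At equal list lengths the log2 difference in summits was 0.14 in the type II cluster (0.49 as reported) and −0.026 in the type I cluster (0.20 as reported), 1 of 9 windows had more summits in both palbociclib libraries (3 as reported), and 12 regions were palbociclib-only (20 as reported). In the highest 10000 summits these values were −0.47, 0.064, 0 and 0, with 3 activin-only regions, of which 1 is among the 7 reported and 2 are in all libraries in the whole lists, 13 in all libraries (41 as reported) and 5 ranked higher with palbociclib (16 as reported). A score of at least 5 gave 1 window (KRT7), 3 activin-only regions and a KRT19 log2 difference of 0.14 (−0.21 as reported). Genome shares are given above for whole lists only, so counts from shortened lists have none beside them. Gaps of 100 and 1000 bp gave 13 and 9 palbociclib-only regions, and 1000 bp gave 2 activin-only regions. Rank as a number gave 10 ranked higher. Flanks of 0, 5 and 25 kb gave 2, 2 and 3 windows with more summits in both palbociclib libraries and 1 window each with more in both activin libraries. The cause of these changes was not tested, beyond shorter lists holding fewer summits. Leaving out each library gave log2 differences of 0.45 to 0.54 and 0.12 to 0.28, 3 to 5 windows (5 without palbociclib replicate 2), 28 to 63 palbociclib-only regions (52 and 63 without palbociclib replicates 1 and 2), 13 to 34 activin-only regions (34 and 29 without activin replicates 1 and 2, 14 and 13 without palbociclib replicates 1 and 2) and 25 to 30 ranked higher with palbociclib. Fewer libraries make the conditions easier to meet, which raises these counts. With the replicate block, which sets libraries of the same number against each other, there were 69 palbociclib-only and 42 activin-only regions on average. Same-numbered libraries did not deviate together (correlation −0.052), so the number was not taken as a pairing. KRT5 and KRT17 gave no log2 difference because libraries stood at 0, nor did KRT81 at a score of at least 5. Read depth is unknown and limits every count.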
